A study of Mus musculus with 18 samples.

Results

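The genes described are 9 sialyltransferases, among them St3gal4, out of 43432 gene identifiers counted in each of 2 tables from mouse intestinal stem cells. They were listed by symbol, and the group was picked because St3gal4 stood higher in Dlg1 knock-out than in wild-type cells at 2 days, so every value of that contrast is given as a description and not as a test. The study sorted intestinal stem cells from the epithelium of mice aged 8 to 16 weeks, at 5000 to 10000 cells a library, and counted poly(A) RNA. There were 4 libraries each of wild type and Dlg1 conditional knock-out at 2 days (48 hours) after tamoxifen, and 5 of each at 14 days. All 18 libraries came from mice injected with tamoxifen, the drug that induces the deletion. The sources used here give neither the Cre driver nor the strain, nor whether a library is 1 animal, so the p-values cover the spread between libraries alone, which may be technical.

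Sialyltransferases are enzymes of the Golgi that move sialic acid from its activated form, CMP-sialic acid, onto the ends of sugar chains on proteins and lipids. The ST3GAL enzymes attach it to a terminal galactose and the ST6GALNAC enzymes to an N-acetylgalactosamine, and each enzyme prefers certain chains: St3gal1 and St3gal2 act on mucin-type O-glycans, St3gal3, St3gal4 and St3gal6 mainly on lactosamine ends, and St3gal5 on lactosylceramide, which makes the ganglioside GM3. In the gut, sialic acid caps mucins and the glycans of the epithelial surface.

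Depth was 14.82 to 40.54 M (mega) counts a library at 2 days and 11.13 to 15.71 M at 14 days. The deepest, wild-type library 1 at 2 days, was also highest in mitochondrial share at 49.1%. In the library labelled knock-out 5 at 14 days 12 satellite-like gene models took 45.7% of the counts, and in no other library did they take over 9.81%. All 15 stem cell markers listed were detected in every group. Levels are given in CPM, a unit in which each library's counts are divided by its TMM-scaled total, within each time. Arhgap31, a GTPase-activating protein named in the study's title, held 3.24 and 0.454 CPM in wild type and knock-out at 2 days and 10.1 and 1.71 CPM at 14 days. Dlg1 itself held 59.4 and 45.7 CPM at 2 days and 72.0 and 64.3 CPM at 14 days, and the ranges of the genotypes overlapped at both times. The library labelled knock-out 5 at 14 days held 100.8 CPM of Dlg1, above all 5 wild-type libraries at 60.5 to 85.8 CPM, and 1.85 CPM of Arhgap31, below all 5 at 6.61 to 13.0 CPM. Dlg1 was counted over the whole gene and the sources used here do not name the deleted exons, so its count checks no label. The 2 day columns taken as knock-out are named Dmin, read as Dlg1 minus, and every 2 day comparison rests on that reading.

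St3gal4 (ENSMUSG00000032038, GRCm38 chromosome 9, 35046576 to 35119268, minus strand, protein coding) lies with its first exons over an annotated antisense transcript, 4930581F22Rik, which shares 412 exonic bases with it. Of the 9 members, 6 had a promoter window in the RefSeq table of GRCm38.p6, which runs from 250 bases before to 50 bases after an annotated start. The windows of St3gal4 and of St3gal6, a well-measured relative with the same kind of substrate, are shown because the 2 day groups stood apart for the former gene and overlapped for the latter. Capitals mark a match, on either strand, to 1 of 4 motifs: the TCF/LEF motif ATCAAAG, the GATA motif AGATAA, the CDX motif TTTATG and the HNF4 motif CAAAGTCCA.
St3gal4, chr9:35116815-35117114, minus strand: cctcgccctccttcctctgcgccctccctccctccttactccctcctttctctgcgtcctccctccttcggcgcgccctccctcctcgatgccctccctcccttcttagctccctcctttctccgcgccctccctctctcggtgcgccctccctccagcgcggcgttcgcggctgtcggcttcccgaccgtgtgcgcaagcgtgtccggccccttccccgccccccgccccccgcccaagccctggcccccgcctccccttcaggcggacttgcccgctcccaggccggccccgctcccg
St3gal6, chr16:58524204-58524503, minus strand: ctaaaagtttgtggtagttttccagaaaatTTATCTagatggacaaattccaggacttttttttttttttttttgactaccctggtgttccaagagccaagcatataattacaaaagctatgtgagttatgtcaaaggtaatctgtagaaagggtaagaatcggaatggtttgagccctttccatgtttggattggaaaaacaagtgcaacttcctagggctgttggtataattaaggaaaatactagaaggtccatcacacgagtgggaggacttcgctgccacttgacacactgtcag
St3gal6, chr16:58523377-58523676, minus strand: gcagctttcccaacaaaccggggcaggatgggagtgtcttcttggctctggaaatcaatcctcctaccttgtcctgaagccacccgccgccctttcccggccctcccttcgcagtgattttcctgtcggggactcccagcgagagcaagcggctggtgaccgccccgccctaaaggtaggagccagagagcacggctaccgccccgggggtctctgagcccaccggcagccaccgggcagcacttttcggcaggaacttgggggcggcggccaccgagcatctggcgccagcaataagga
The St3gal4 window held 74.0% G and C bases and 31 CpG dinucleotides, against a median of 52.7% G and C over the 32851 promoter windows of the table. The St3gal6 windows held 38.7% with 3 CpG and 64.7% with 20 CpG. Of the windows not shown, that of St3gal3, whose 2 day groups also overlapped, held 70.0% with 26 CpG. Those of St3gal5, St6galnac4 and St6galnac6 held 72.7% with 33, 65.7% with 23 and 52.0% with 2 CpG. The windows not shown held no match to the motifs, so neither a high G and C share nor the lack of a match is particular to St3gal4. None of the 4 motifs was found in the St3gal4 window, and the upstream St3gal6 window held 1 GATA match and the other none. The St3gal4 window lies inside the annotated span of the gene. The outer 5' end of that span, at 35119268, has no window, so the lack of a match does not cover it. The share of all windows with a match was 3.73% for TCF/LEF, 11.2% for GATA, 11.9% for CDX and 0.475% for HNF4.

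In the 2 day wild-type libraries 1 to 4 St3gal4 held 13.6, 16.8, 12.2 and 16.9 CPM. In knock-out libraries 1 to 4 it held 74.0, 23.5, 35.8 and 54.1 CPM. All 4 knock-out libraries lay above all 4 wild-type libraries, and the knock-out values differed among themselves more than the wild-type values did. Knock-out averaged 46.9 ± 22.1 and wild type 14.9 ± 2.34 CPM (SD, n = 4 each), and the fitted fold change was 3.15 (log2 1.65, SE 0.32). Raw counts behind these values ran from 212 to 376 in wild type and from 648 to 1515 in knock-out. This difference is what chose the gene and is given without a test. As background, 2.03% of the 13031 genes fitted at 2 days had every knock-out library above every wild-type library, and 1.05% had a fold change at or above that of St3gal4. At an adjusted p under 0.05 edgeR's quasi-likelihood test called 0.0% of those genes, with 640 at an unadjusted p under 0.05, limma voom called 0, and DESeq2 called 13. No call is read for St3gal4 itself, because this contrast chose it. Without knock-out library 1, the highest, the log2 fold change of St3gal4 was 1.34, and without knock-out library 2, the lowest, it was 1.88.

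At 14 days, in libraries that took no part in the choice, St3gal4 did not differ detectably between genotypes. Wild-type libraries 1 to 5 held 192.9, 165.2, 133.5, 90.4 and 175.1 CPM, and knock-out libraries 1 to 5 held 154.5, 170.1, 155.1, 162.0 and 78.6 CPM. The ranges overlapped almost completely, and each genotype had 1 library well under its others. Knock-out averaged 144.1 ± 37.2 and wild type 151.4 ± 40.3 CPM (SD, n = 5 each). The fitted log2 difference was -0.07 (SE 0.23), and 2 standard errors span -0.53 to 0.39. Its adjusted p from edgeR was 0.982, and the two-sided exact permutation p of mean log2 CPM was 0.722, where 252 assignments allow a smallest p of 0.00794. Without the library labelled knock-out 5, which had the satellite-like counts and the highest Dlg1, the log2 fold change was 0.06. Over all 13991 genes fitted at 14 days 0.0% passed by edgeR, 558 had an unadjusted p under 0.05, DESeq2 called 1 and limma voom 0. The genotype effect at 14 days minus that at 2 days was -1.74 in log2 (SE 0.40), which is likewise a description, since its 2 day part chose the gene. In that contrast edgeR called 0.0% of 15458 genes, with 921 (5.96%) at an unadjusted p under 0.05, limma voom called 0, and DESeq2 called 13.

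**Figure D1:**
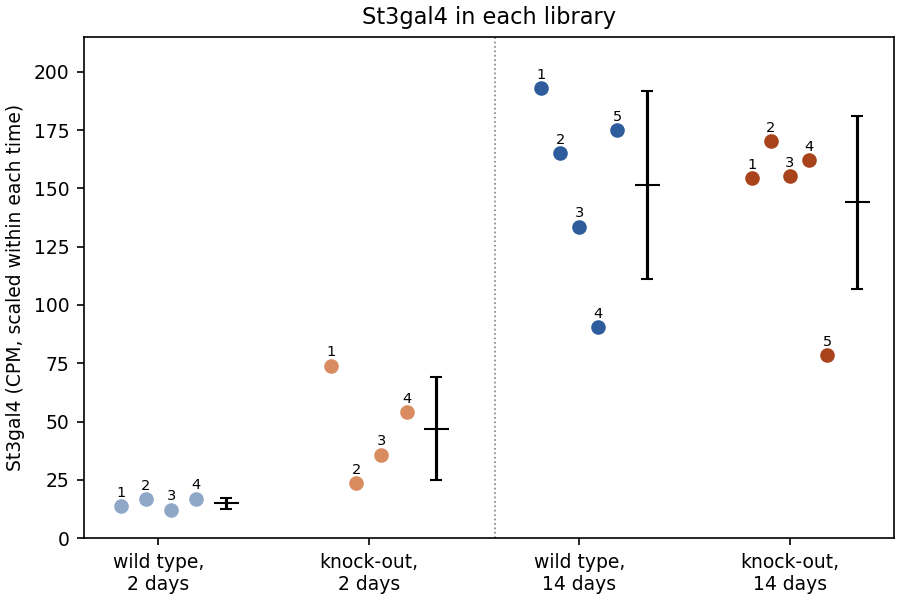
St3gal4 in CPM, scaled within each time, in every library (numbered points) by genotype and time, with the mean and SD of each group as black bars. The 4 knock-out libraries at 2 days, from 23.5 to 74.0 CPM, sit above the wild-type libraries, from 12.2 to 16.9 CPM, and the genotypes overlap at 14 days.

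St3gal4 was far higher in wild-type cells at 14 days than at 2 days. With all libraries scaled together, it held 17.6 ± 2.73 CPM at 2 days (SD, n = 4) and 133.0 ± 34.7 CPM at 14 days (SD, n = 5), from 14.5 to 20.03 and from 79.2 to 166.5 CPM. That is a 7.55-fold difference, or 2.92 in log2 (SE 0.31), beside a median of 0.12 over all 15458 genes fitted. On the same scale the 2 day knock-out libraries ranged from 27.7 to 88.0 CPM, and 3 of the 4 lay between the wild-type ranges of the 2 times. The times are separate tables and may be separate runs or cohorts, so time and table cannot be told apart, and no test is given. Mitochondrial genes took 26.1 to 49.1% of the counts in the 2 day libraries and 6.2 to 26.3% in those of 14 days. Summed stem cell markers in wild type held 6401 to 6931 CPM at 2 days and 3020 to 4111 CPM at 14 days, each scaled within its time. The part of these differences in St3gal4 was not tested. Most genes measured differed between the tables, as 53.4% differed between the wild-type groups by edgeR at an adjusted p under 0.05, and 6.76% rose at least as far as St3gal4. The other members did not all differ in that direction: St6galnac2, St3gal6 and St3gal3 had log2 differences of -0.80, -0.57 and -1.07 with standard errors of 0.15, 0.21 and 0.28, and St3gal1 had -2.14 with 0.47. St3gal2, at few counts, had 1.89 with a standard error of 0.76. In each of these 6 genes the wild-type ranges of the 2 times did not overlap, where 22.4% of genes lay wholly above and 20.6% wholly below.

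The share of each gene in the counts of the group does not depend on how libraries are scaled. It is not corrected for length, so it follows 1 gene across libraries and does not rank the levels of different genes. In wild-type libraries at 2 days St3gal4 took 6.21% ± 1.32 of the counts of the 9 genes (SD, n = 4) and St6galnac2, which adds sialic acid to the N-acetylgalactosamine of O-glycans, took 65.1% ± 4.29. In the knock-out libraries 1 to 4 at 2 days the St3gal4 share was 26.3%, 8.54%, 14.2% and 20.9%, with 95% Wilson intervals, in the same order, of 25.2 to 27.4%, 8.00 to 9.10%, 13.3 to 15.3% and 19.7 to 22.2% that cover counting error only. The highest wild-type share at 2 days was 7.84%, with an interval of 7.05 to 8.71% that overlaps that of knock-out library 2. At 14 days St3gal4 took more of the counts than any other member in 4 of the 5 libraries of each genotype, with 45.1% ± 7.45 in wild type and 42.8% ± 8.11 in knock-out (SD, n = 5 each; p = 0.635 by a two-sided exact permutation test), and St6galnac2 took 37.7% ± 5.63 and 37.9% ± 5.78. The exceptions were wild-type library 4 and the library labelled knock-out 5, where St6galnac2 took more and St3gal4 33.5% and 29.8%. Without the latter the difference of the mean St3gal4 share, knock-out minus wild type, was 0.99 percentage points. These were also the libraries with the lowest St3gal4 in CPM.

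**Figure D2:**
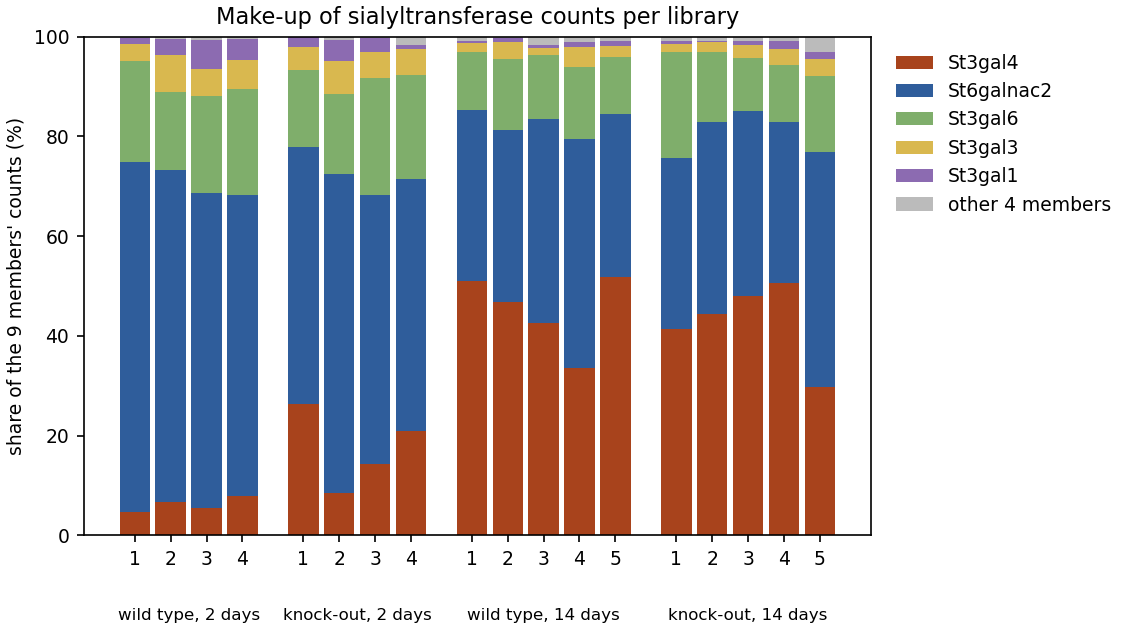
Share of the summed counts of the 9 sialyltransferase genes (per cent) taken by each gene, 1 bar per library, grouped by genotype and time. The St3gal4 segment spans 4.81 to 7.84% in wild type at 2 days, 8.54 to 26.3% in knock-out at 2 days and 29.8 to 51.7% at 14 days.

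Levels of different genes are compared per length, as mean CPM per kilobase of exon. In wild type at 2 days St6galnac2 led with 27.5 ± 5.41, followed by St3gal6 with 7.53 ± 1.24, St3gal4 with 5.09 ± 0.801 and St3gal3 with 4.75 ± 1.34 CPM per kilobase (SD, n = 4). The ranges of St3gal4 and St3gal3 overlapped, as did those of St3gal3 and St3gal6, and those of St3gal4 and St3gal6 did not. In the knock-out at 2 days St3gal4 was second, at 16.0 ± 7.54 CPM per kilobase (SD, n = 4), with a range that overlapped both St6galnac2 at 25.4 ± 3.496 and St3gal6 at 8.16 ± 1.24. At 14 days it was first in wild type, at 51.8 ± 13.8 against 21.2 ± 1.35 CPM per kilobase for St6galnac2 (SD, n = 5), and first in knock-out, at 49.3 ± 12.7 against 21.5 ± 2.78 (SD, n = 5), with no overlap in either. St3gal1 followed St3gal3 in every group, between 0.370 and 1.21 CPM per kilobase as a mean, and at 14 days it overlapped St3gal2. The 4 remaining genes, St3gal2, St3gal5, St6galnac4 and St6galnac6, stood under 0.4 CPM per kilobase as a mean in every group. Single libraries reached 0.761 for St3gal2 in wild type and 0.622 for St6galnac6 in knock-out at 14 days. These genes overlapped one another in most pairs of neighbours.

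**Figure D3:**
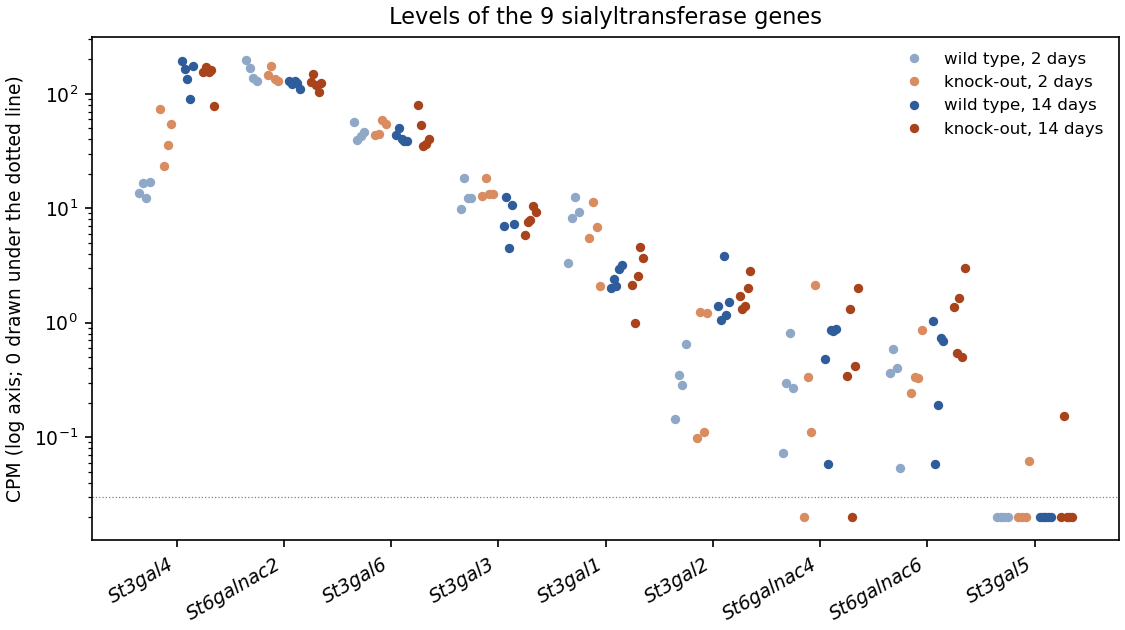
Level of each of the 9 genes in every library, in CPM scaled within each time on a log axis, coloured by genotype and time, with libraries at 0 counts drawn under the dotted line. The drawn values run from 12.2 to 192.9 CPM for St3gal4, from 103.3 to 198.8 CPM for St6galnac2 and from 34.8 to 79.7 CPM for St3gal6. The times are scaled apart, so these spans do not compare the times.

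Among the enzymes for lactosamine ends, St3gal6 (ENSMUSG00000022747, chromosome 16, 58468125 to 58524243, minus strand) held 57.2, 39.7, 42.8 and 46.1 CPM in the 4 wild-type and 43.5, 44.4, 59.2 and 54.3 CPM in the 4 knock-out libraries of 2 days. The genotypes overlapped (log2 difference 0.12, SE 0.18). At 14 days wild-type libraries 1 to 5 held 43.6, 49.99, 40.2, 38.6 and 39.0 CPM and knock-out libraries 79.7, 53.2, 34.8, 36.7 and 39.9 CPM. The log2 difference was 0.21 (SE 0.21, edgeR adjusted p = 0.957). Without knock-out library 1, the highest and one of the B libraries described below, it was -0.04 (SE 0.16). Knock-out libraries 1 and 2 lay above every wild-type library and libraries 3 and 4 below every one. These pairs fall in different sets of column names: libraries 1 and 2 of each genotype carry the letter B and libraries 3 to 5 the letter J, a mark that the sources used here do not explain. The log2 fold change of St3gal6 was 0.49 within the B libraries and -0.08 within the J libraries, and that of St3gal4 was -0.16 and -0.01. With the letter as a term in the 14 day fit they were 0.16 and -0.06, and edgeR called no member and 0 genes, with 547 at an unadjusted p under 0.05. At its 3' end 1603 exonic bases of St3gal6 overlap Dcbld2 on the other strand, which held 1.67 to 2.82 CPM as group means. St3gal3 (ENSMUSG00000028538, chromosome 4, 117932154 to 118134914, minus strand) held 9.78 to 18.4 CPM in wild type and 12.8 to 18.3 CPM in knock-out at 2 days, and 4.51 to 12.5 and 5.84 to 10.5 CPM at 14 days. Both pairs overlapped (log2 differences 0.13, SE 0.26, and -0.04, SE 0.29).

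Among the enzymes for O-glycans, St6galnac2 (ENSMUSG00000057286, chromosome 11, 116675303 to 116694868, minus strand) took the largest share of the counts of the group at 2 days and had the highest mean per length there. It held 198.8, 169.0, 138.5 and 130.0 CPM in wild type and 145.4, 175.7, 135.7 and 130.5 CPM in knock-out there, and 110.7 to 130.4 and 103.3 to 147.9 CPM at 14 days. Genotypes overlapped at both times (log2 differences -0.12, SE 0.17, and 0.02, SE 0.13), and 2 standard errors at 14 days span -0.24 to 0.28. A second gene identifier with the same symbol shares 383 exonic bases with it and is not used here. Its exons share 497 bases with 1810032O08Rik on the other strand, whose group means were 5.25 and 7.32 CPM at 2 days and 37.0 and 42.7 CPM at 14 days. St3gal1 (ENSMUSG00000013846, chromosome 15, 67102875 to 67176830, minus strand), which caps the core of mucin-type O-glycans, held 3.33, 8.22, 12.5 and 9.23 CPM in wild type and 5.47, 11.3, 6.91 and 2.09 CPM in knock-out libraries at 2 days. These overlapped (log2 difference -0.36, SE 0.50), and at 14 days wild type averaged 2.54 ± 0.526 and knock-out 2.81 ± 1.41 CPM (SD, n = 5 each). St3gal2 (ENSMUSG00000031749, chromosome 8, 110919922 to 110972480, plus strand), which acts on O-glycans and on gangliosides, had 2 to 45 raw counts a library at 2 days and 17 to 40 at 14 days. Its 14 day means were 1.79 ± 1.16 CPM in wild type and 1.86 ± 0.620 CPM in knock-out (SD, n = 5 each).

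The rest of the group had few counts. St6galnac4 (ENSMUSG00000079442, chromosome 2, 32587095 to 32599698, plus strand), which acts on already sialylated O-glycans, had 0 to 35 counts a library, and St6galnac6 (ENSMUSG00000026811, chromosome 2, 32599709 to 32620806, plus strand), which makes gangliosides with several sialic acids, had 1 to 21. The annotated ends of these neighbours on chromosome 2 are 10 bases apart. St6galnac6 had the largest 14 day difference of the 7 members fitted, at 1.03, 0.0587, 0.192, 0.729 and 0.689 CPM in wild-type libraries and 1.37, 0.540, 1.66, 0.505 and 2.995 CPM in knock-out libraries. Of the knock-out libraries 3 lay above every wild-type library, and the ranges overlapped. The log2 difference of 1.32 (SE 0.70) did not pass (edgeR adjusted p = 0.957), nor did the two-sided exact permutation test (p = 0.0952, n = 5 each). It was 0.86 without the library labelled knock-out 5, where its level was highest. St3gal5 (ENSMUSG00000056091, chromosome 6, 72097592 to 72154571, plus strand), the GM3 synthase, had 0 counts in 16 of the 18 libraries, 1 count in knock-out library 4 at 2 days and 2 in knock-out library 2 at 14 days. A count of 0 allows up to 3 counts, or 0.0835 to 0.428 CPM depending on the library.

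Of the 9 members, 5 passed the filter on low counts at 2 days and 7 at 14 days. None of the 7 passed at 14 days, with or without the library labelled knock-out 5 (edgeR adjusted p from 0.957 to 0.995 with it), beside 0.0% of all genes, and none had an unadjusted p under 0.05, beside 3.99% of all genes. Without that library their log2 differences ran from -0.15 for St3gal2 to 0.86 for St6galnac6. None had ranges that stood apart between genotypes, beside 0.529% of all genes, and the two-sided exact permutation p ran from 0.0952 to 0.937 (n = 5 each). At 2 days St3gal4 had ranges apart, as did 3.98% of all genes, but that contrast chose it, so this is no result about the group. The other 4 members fitted there overlapped between genotypes, with log2 fold changes between -0.36 and 0.13.

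**Figure D4:**
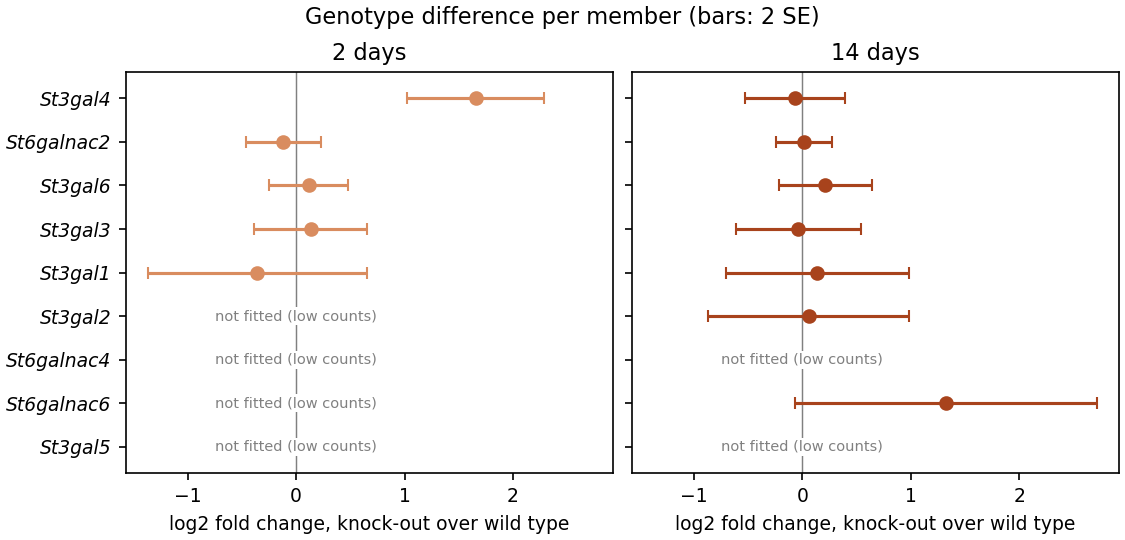
Log2 fold change of knock-out over wild type for each member at 2 days (left) and 14 days (right), with bars of 2 standard errors. St3gal4 at 2 days, at 1.65, is the value that chose the group, and the other members lie between -0.36 and 0.13 there.

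The libraries are bulk samples, in which fewer cells of a type and less RNA per cell cannot be told apart. Markers of absorptive enterocytes, the mature cells that stem cells give rise to, were also higher in some knock-out libraries at 2 days. Of 20 enterocyte markers, all of them detected in every group, 19 had fold changes above no change at 2 days (median log2 1.33, beside 0.01 over all genes), and 11 had an unadjusted p under 0.05, beside 4.91% of all genes, but none was called. Their summed level was 2369, 2249, 1894 and 1964 CPM in wild-type libraries 1 to 4 and 6430, 2100, 1948 and 2983 CPM in knock-out libraries 1 to 4. Knock-out libraries 1 and 4 were the highest in both measures. Without knock-out library 1, 13 of the 20 markers stood higher in mean log2 CPM and the median difference was 0.17, against 19 and 0.85 with it. Without knock-out library 2, 3 or 4, 19 stood higher each time, with medians of 1.07, 1.11 and 0.825. In the same measure St3gal4 differed by 1.53 with all libraries and by 1.27 without knock-out library 1. Without library 2, 3 or 4 it differed by 1.82, 1.62 and 1.42. The marker sums of knock-out libraries 2 and 3 lay within the wild-type range. Their St3gal4, at 23.5 and 35.8 CPM, lay above the wild-type range. At 14 days 18 of the 20 markers had a negative fold change, with a median of -0.40, and wild-type library 3, with the highest sum at 8249 CPM, had less St3gal4 than 3 of the other 4 wild-type libraries. Summed, the 15 stem cell markers held 6401 to 6931 CPM in wild type and 5385 to 6225 CPM in knock-out at 2 days. Every knock-out sum lay below every wild-type sum there. Of these markers 10 had a negative fold change at 2 days and none an unadjusted p under 0.05. At 14 days the sums overlapped, at 3020 to 4111 CPM in wild type and 2765 to 3860 CPM in knock-out. The 9 goblet cell markers summed to 480.1 to 676.7 and 474.1 to 1256 CPM in wild type and knock-out at 2 days. None was at 0. At 14 days all 9 had fold changes above no change (median log2 0.69, beside 0.006 over all genes). An unadjusted p under 0.05 was found for 2, beside 3.99% of all genes, and none was called. Their 14 day sums were 1346 to 4492 CPM in wild type and 12350, 1761, 3424, 2357 and 3827 CPM in knock-out libraries 1 to 5. Only the sum of knock-out library 1 lay outside the wild-type range. Tuft markers had a median of 0.80 at 2 days over 7 fitted, Paneth markers -0.08 over 9 and enteroendocrine markers -0.08 over 9, and none of these genes was called. Their sums overlapped between genotypes there. Tuft markers summed to 8.06 to 23.9 CPM in wild type and 9.12 to 54.3 CPM in knock-out. Paneth markers summed to 197.6 to 2965 and 652.9 to 1881 CPM, and enteroendocrine markers to 103.9 to 168.0 and 31.8 to 353.8 CPM. Immune markers summed to 26.8 to 77.3 CPM in wild type and 25.8 to 32.3 CPM in knock-out at 2 days. Stromal and endothelial markers summed to at most 3.28 CPM there, with Dcn and Cdh5 at 0, and red cell markers to at most 1.12 CPM, with 4 of 5 at 0. The part of these cells in the values of St3gal4 was not tested.

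**Figure D5:**
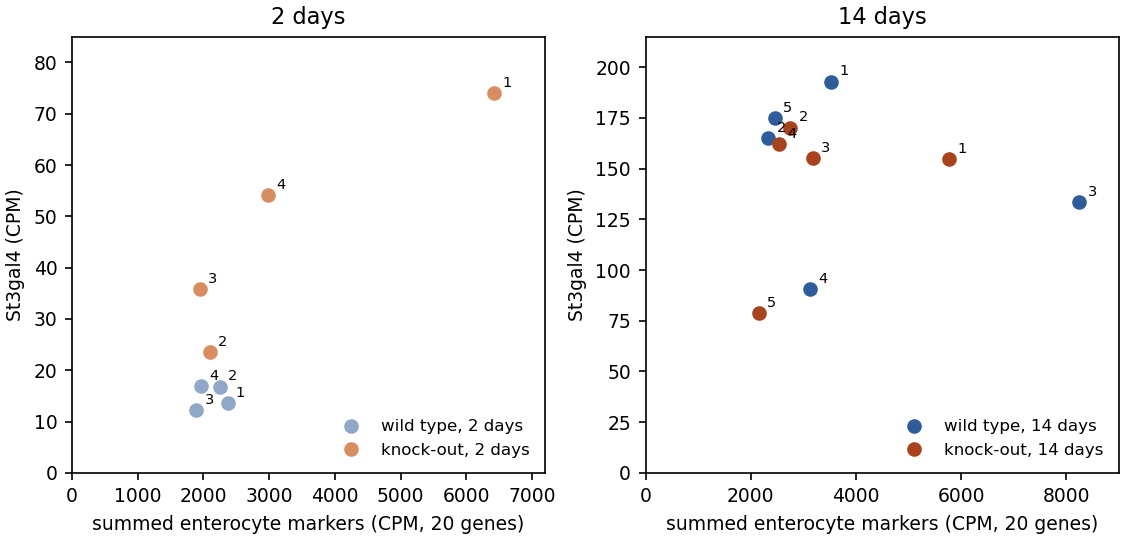
St3gal4 (CPM, vertical) against the summed level of 20 enterocyte markers (CPM, horizontal) in each numbered library at 2 days (left) and 14 days (right). Knock-out libraries 2 and 3 at 2 days lie above all wild-type libraries in St3gal4, at 23.5 and 35.8 CPM, with marker sums of 2100 and 1948 CPM inside the wild-type range.

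The antisense neighbour of St3gal4 was also low in wild type at 2 days. There 4930581F22Rik held 0.688, 1.09, 1.09 and 0.540 CPM, and in the knock-out libraries 0.782, 1.70, 4.09 and 2.39 CPM. Unlike St3gal4 it overlapped between genotypes, and among the knock-out libraries it was lowest in library 1, where St3gal4 was highest. At 14 days it averaged 4.95 ± 3.09 in wild type and 5.87 ± 2.30 in knock-out libraries (SD, n = 5 each). The sources used here do not say whether the counting used strand, so reads of this transcript and of St3gal4 over the shared exons cannot be told apart. Its counts were 10 to 157 a library, against 212 to 3183 for St3gal4.

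The 5 genes whose pattern over the 18 libraries was most like that of St3gal4 were found by the root mean square difference of log2 CPM, each gene expressed as its deviation from the wild-type mean of the same time, among 8137 genes. Aqp11, an aquaporin of intracellular membranes, was nearest at 0.47, followed by Paqr4 at 0.51, Abat, the enzyme that breaks down GABA, at 0.51, Hkdc1, a hexokinase family member, at 0.52, and Hagh, a glyoxalase, at 0.53. A gene with no deviation in any library would lie at 0.84, and the other sialyltransferases fitted at both times lay from 0.83 for St3gal6 to 1.32 for St3gal1. At 2 days Aqp11 averaged 9.95 ± 3.15 CPM in wild-type and 19.96 ± 4.86 CPM in knock-out libraries (SD, n = 4 each), and Hkdc1 12.5 ± 5.16 and 29.9 ± 9.60 CPM. At 14 days, in the same order, Aqp11 held 28.3 ± 3.16 and 30.1 ± 11.96 CPM (SD, n = 5 each), and Hkdc1 62.5 ± 9.87 and 50.2 ± 8.46 CPM. These genes were picked by the 2 day difference they share with St3gal4, so their values are a description.

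The other 11 sialyltransferase genes had few counts. St6gal1, which adds sialic acid in the other linkage to lactosamine ends, had 12 to 29 counts a library in wild type and 0 to 56 in knock-out at 2 days, and 2 to 7 and 1 to 20 at 14 days. St6galnac1 had at most 4 counts in any library, and 5 of the 11 genes had 0 counts in all libraries at 2 days. Only St6gal1 at 2 days and St8sia3 at 14 days passed the filter on low counts, with log2 fold changes of -0.61 ± 0.99 and 0.41 ± 0.62 (SE).

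No gene that supplies sialic acid passed at either time at an adjusted p under 0.05 by edgeR, as was the case for 0.0% of all genes. Of 6, 4 were fitted, their median log2 fold changes were -0.11 and 0.05, and Gne, the enzyme that starts sialic acid synthesis, had -0.05 ± 0.17 at 2 days and 0.03 ± 0.13 at 14 days (SE). Cmas, which activates sialic acid, had -0.17 ± 0.20 and 0.04 ± 0.17 (SE). Slc35a1, the carrier of CMP-sialic acid into the Golgi, had -0.77 ± 0.45 at 2 days, with a wild-type mean of 66.2 ± 60.0 CPM (SD, n = 4), and 0.05 ± 0.15 at 14 days (SE). Of the genes that remove or modify sialic acid, 7 of 9 were fitted at each time and none passed. The sialidase Neu1 had 0.21 ± 0.27 at 2 days and -0.35 ± 0.21 at 14 days (SE), with its partner Ctsa at 0.21 ± 0.16 and -0.26 ± 0.17 (SE).

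The lists that build the chains on which these enzymes act also had no member that edgeR called at either time, where it called 0.0% of all genes, so neither count sets these lists apart. Of 13 fitted O-glycan genes, 6 had fold changes above and 7 below no change at 2 days, and 8 and 5 at 14 days. C1galt1, which makes the core that St3gal1 caps, had -0.59 ± 0.29 at 2 days and 0.59 ± 0.26 at 14 days (SE). Of the N-glycan branching and lactosamine genes 11 were fitted at 2 days, with a median of -0.02, and 12 at 14 days, with a median of -0.09. All 5 genes of ganglioside core synthesis were fitted, with medians of 0.16 and -0.26. B4galt5, an enzyme that makes the lactosylceramide that St3gal5 uses, held 17.8 ± 6.42 CPM in wild type and 31.1 ± 9.24 CPM in knock-out at 2 days (SD, n = 4 each). Its log2 differences were 0.81 ± 0.31 there and -0.34 ± 0.18 at 14 days (SE). B4galt6, of the same list, was more abundant, at 105.2 ± 15.5 and 101.0 ± 14.2 CPM at 2 days (SD, n = 4 each). Its log2 differences were -0.06 ± 0.165 there and -0.42 ± 0.18 at 14 days (SE). Of the other terminal glycosyltransferases 8 were fitted at 2 days and 6 at 14 days, with medians of -0.10 and -0.19. The core fucosyltransferase Fut8 had -0.11 ± 0.19 and 0.08 ± 0.14 (SE). Among the mucins and other carriers, Muc3, a membrane mucin of enterocytes, held 88.3 ± 10.7 CPM in wild type and 147.4 ± 48.1 CPM in knock-out at 2 days (SD, n = 4 each), with a log2 difference of 0.74 ± 0.24 (SE). Muc2, the secreted goblet cell mucin, had 0.26 ± 0.27 at 2 days and 0.65 ± 0.42 at 14 days (SE).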

How the data were processed

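Poly(A) RNA of sorted intestinal stem cells was counted in 18 libraries. The values deposited by the authors are whole-number read counts per Ensembl gene, 1 table per time, not normalized. The submitters' processing notes name STAR 2.4.2a, bcl2fastq 2.20.0.422 and the build GRCm38. No annotation, counting program or strand setting is named in the sources used here. Columns were put in groups by their names (WT, Dko, Dmin), and libraries were numbered by their place in the table. Symbols, coordinates and exon lengths came from GENCODE M21, and 42462 of 43432 identifiers had a symbol.

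Each time was fitted alone over all genes with edgeR 4.0.16 in R 4.3.3 (filterByExpr with a minimum count of 10, TMM, quasi-likelihood F-test, Benjamini-Hochberg, called under 0.05). A joint fit of 4 group means gave the comparisons across times. Standard errors are the absolute log2 fold change over the square root of F. Exact two-sided permutation tests were run on mean log2 CPM (pseudocount 0.5). Log2 CPM for likeness used a prior count of 2. The script was tested on simulated data. The alternatives were RLE or upper-quartile factors, no filter, a minimum count of 50, DESeq2 1.42.0, limma 3.58.1 voom, no mitochondrial genes, a joint fit, each library left out and, added after seeing the data, the letters B and J apart or as a term.

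All 9 members are named. From each glycan list genes were named among the 4 of smallest p at either time, and the 5 genes most like St3gal4 were taken from those averaging a log2 CPM of 3 or more in both tables and were not predicted models. The members and lists were chosen with earlier results of these data known. The 12 satellite-like models were chosen after their counts were seen.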

Additional observations from a re-analysis of the deposited data

Results flagged for a closer look

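Values of single libraries were compared within each of 24 sets, each being 1 fitted member in 1 group, by the gap to the nearest other library relative to the range of the group. Chance alone marks about 1 in 20 such sets, and 3 were marked. St3gal4 in the library labelled knock-out 5 at 14 days, at 78.6 CPM, lay below the other knock-out libraries of that time, which held 154.5 to 170.1 CPM. This library also had the satellite-like counts and the highest Dlg1 of its time. St3gal2 in wild-type library 3 at 14 days, at 3.84 CPM, lay above the others of its group at 1.06 to 1.503 CPM. St3gal3 in knock-out library 2 at 2 days, at 18.3 CPM, lay above the others at 12.8 to 13.3 CPM.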

How the results depend on the processing

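No member was called at 14 days under any alternative run. St3gal4 at 2 days is a description here, and no call of it under an alternative is read as a test, because that contrast chose it. The number of genes called at 14 days by edgeR with Benjamini-Hochberg adjustment was 0, but 2 with no filter, 1 by DESeq2 and 1 within the B libraries. At 2 days it was 0, but 7 with no filter, 13 by DESeq2, 2 in the joint fit and 0 to 1 with each library left out in turn. For the difference between times it was 0, but 98 with no filter, 13 by DESeq2 and 0 to 1 with each library left out. The cause of these differences was not tested. The 2 day log2 difference of St3gal4, which chose the gene, ran from 1.34 to 1.88, and the knock-out minus wild-type difference of its share, 11.3 percentage points, ranged from 8.37 to 14.3 without single libraries.

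At 14 days, where no member passed, some log2 differences near 0 turned sign, and the cause was not tested. These were St3gal1 at -0.072 with voom and -0.50 in the B libraries, St3gal2 at -0.004 with no filter and -0.049 in the J libraries, St3gal3 at 0.29 and St3gal6 at -0.081 in the J libraries, and St6galnac2 at -0.045 with no filter, -0.001 in the joint fit and -0.067 in the J libraries. With each library left out, the fitted values ranged from -0.13 to 0.36 for St3gal1, -0.15 to 0.52 for St3gal2, -0.19 to 0.15 for St3gal3, -0.21 to 0.063 for St3gal4, -0.039 to 0.299 for St3gal6 and -0.052 to 0.078 for St6galnac2. The differences of mean log2 CPM ranged from -0.17 to 0.28, -0.017 to 0.377, -0.16 to 0.18, -0.25 to 0.13, -0.051 to 0.245 and -0.053 to 0.076 for the same genes in that order. In levels per length by the longest transcript, St3gal4 held 7.10 and 72.3 CPM per kilobase in wild type at 2 and 14 days. Each of these is scaled within its own time, so the pair gives no fold change between times. Upper-quartile scaling moved the median of all genes between wild-type times from 0.12 to 0.25. No paired analysis was possible because no column name holds a replicate number that could tie libraries across groups. The letters B and J mark sets of libraries rather than pairs, and with the letter as a term at 14 days all 7 members kept their sign. St3gal2, St3gal5, St6galnac4 and St6galnac6 had at most 45, 2, 35 and 21 counts in any library.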
